A study of Mus musculus with 2 samples.

Results

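Enzymes and binding proteins that place, copy, read and remove methyl groups on DNA were examined in endothelial cells (ECs) of mouse mammary tumors and normal mammary glands. The group comprised 8 genes, namely Dnmt1, Dnmt3a, Dnmt3b, Uhrf1, Tet1, Tet2, Tet3 and Mbd2, and all 8 were among the 14976 genes listed for both libraries. Live cells without CD45 and with CD31 on their surface were sorted and sequenced in droplets, and the values are counts of unique molecular identifiers (UMIs), each of which stands for 1 captured RNA molecule. The first library came from E0771 tumors (TECs), which grow from a mouse mammary carcinoma cell line, and held 704 barcodes and 18980858 UMIs. The second came from pooled normal mammary glands of C57BL/6 mice of 6 to 8 weeks (NECs) and held 9047 barcodes and 40914092 UMIs. The labels give neither a genotype change nor a drug treatment for either library, and give no strain or age for the mice with tumors. For the NEC library, the labels of source, tissue and cell type name E0771 or TECs, whereas its title and the study design name normal cells, which is how it was read here. Each condition had 1 library, so tumor, animal pool, sort and sequencing run cannot be told apart, no test between conditions was possible, and all intervals are 95% intervals that cover counting error only.

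Cells were kept if they had 200 or more genes, less than 10% mitochondrial UMIs and no UMI of Ptprc (leukocytes), Myh11 (smooth muscle), Epcam (epithelium) or Cspg4 (pericytes), which left 5200 NECs and 456 TECs. A cell was taken as endothelial if it had at least 1 UMI of Cdh5 or Pecam1, junction proteins of endothelium, and more of these than of Rhox5, Hmga2 and Krt8, genes of the carcinoma cells. The sums were 1 UMI apart in 297 of the endothelial NECs, 14 TECs and 12 cancer-like cells. This gave 4912 NECs with a median of 2984 UMIs and 261 TECs with a median of 16989 UMIs. In the tumor library, 183 cells with more of the carcinoma genes were taken as cancer-like cells and had a median of 51995 UMIs. A list of 12 further endothelial genes, Kdr, Tie1 and Flt1 among them, summed to 10029 counts per 1000000 UMIs (CPM) in the NECs, 7387 CPM in the TECs and 110 CPM in the cancer-like cells. By cell type markers the normal library was mixed, since a list of salivary secretory genes reached 2170 CPM (Bpifa2 alone 1038 CPM) and hemoglobin genes reached 2406 CPM in its ECs, while hemoglobin genes had 0 UMIs in TECs and the salivary genes are not listed for that library. Pericyte and smooth muscle genes (8 of 8 found in NECs, 7 of 8 in TECs, with Cnn1 at 0) summed to 258 CPM in NECs, where Rgs5 led with 106 CPM, and 52.7 CPM in TECs. Fibroblast genes summed to 69.1 CPM in NECs and 7.53 CPM in TECs, where Lum and Dpt were at 0. Epithelial genes summed to 127 CPM in NECs (9 listed) and 46.7 CPM in TECs (6 listed, Krt18 and Krt19 at 0). Immune genes summed to 55.1 and 458 CPM, of which Cd74 held 46.6 and 451 CPM, and the defining genes Cd3e and Csf1r were at 0 in TECs. With the pericyte-like, salivary-like and shallow clusters left out, 1 member was 2-fold higher and 4 were 2-fold lower in TECs than in NECs. The counts were the same with all clusters kept, beside 10.1% and 22.5% of all genes compared. The shares of all genes without these clusters were not computed, and the part of RNA from other cell types in the ratios was not tested. Of the barcode sequences, 3 occurred in both libraries, and only 1 of these among the classified cells.

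DNA methylation at CpG sites is copied after replication by DNMT1, which is brought to the hemimethylated daughter strands by UHRF1. DNMT3A and DNMT3B set new methyl groups, the TET dioxygenases oxidize methylcytosine on the way to its removal, and MBD2 binds methylated CpG sites and recruits the NuRD corepressor complex. Since maintenance follows the replication fork, transcripts of Dnmt1 and Uhrf1 are known to be high in dividing cells, and many replication genes are targets of E2F transcription factors.

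The promoters of Dnmt1 and Uhrf1 are shown because the intervals of both lay above 0 in cells with over cells without proliferation markers in all 3 populations compared, and because E2F-type words were found in their windows only. RefSeq windows (GRCm38.p6) of 250 bases before to 50 after each annotated transcript start were searched on both strands for 4 words of 8 bases, TTTGGCGC, TTTCGCGC, TTTGCCGC and TTTCCCGC. The 7 members with an entry (all but Mbd2) had 12 windows, and a word was found in 1 window of Dnmt1 and 1 of Uhrf1. For comparison, 2.26% of the 32851 windows of all genes held a word, as did a window of 2.61% of 27025 genes, of 6 of 15 S phase genes and of 1 of 14 G2 and M phase genes. The Dnmt1 window, chr9:20952574-20952873 on the minus strand, and the Uhrf1 window, chr17:56304063-56304362 on the plus strand, are printed from 5′ to 3′ with the words in capitals.
Dnmt1: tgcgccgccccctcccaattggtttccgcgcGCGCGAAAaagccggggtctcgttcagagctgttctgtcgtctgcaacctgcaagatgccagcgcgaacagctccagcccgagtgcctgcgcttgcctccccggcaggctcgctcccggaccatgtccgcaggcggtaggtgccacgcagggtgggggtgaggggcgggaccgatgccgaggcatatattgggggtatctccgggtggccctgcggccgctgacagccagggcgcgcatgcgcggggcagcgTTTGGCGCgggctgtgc
Uhrf1: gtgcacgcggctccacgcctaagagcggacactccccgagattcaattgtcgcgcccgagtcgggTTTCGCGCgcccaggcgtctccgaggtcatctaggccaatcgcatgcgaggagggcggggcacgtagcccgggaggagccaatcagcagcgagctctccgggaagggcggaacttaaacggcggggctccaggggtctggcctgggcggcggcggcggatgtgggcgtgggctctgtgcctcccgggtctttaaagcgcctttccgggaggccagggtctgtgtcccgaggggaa
In the Dnmt1 window, GCGCGAAA (the reverse complement of TTTCGCGC) began at position -219 from the start and TTTGGCGC at 33, and in the Uhrf1 window TTTCGCGC began at -185. The other 2 windows of Dnmt1 and the other window of Uhrf1 held none of the words. Both windows lie within the GENCODE M21 spans of their genes (chr9:20907209-20959888 and chr17:56303321-56323486), downstream of the outermost start, and a match describes the letters alone. The other members lie at chr12:3806007-3914443 (Dnmt3a), chr2:153649450-153687730 (Dnmt3b), chr10:62804570-62908996 (Tet1), chr3:133463679-133545139 (Tet2) and chr6:83362373-83459084 (Tet3) in the same annotation.

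Between tumor and normal endothelium, the copying enzyme and its partner differed from each other, the de novo and TET genes were lower in TECs, and the reader Mbd2 was higher. Dnmt1 was at 29.0 CPM in NECs (502 UMIs, Poisson interval 26.6 to 31.7) and 32.1 CPM in TECs (149 UMIs, 27.1 to 37.7), intervals that overlapped. Uhrf1 was at 3.18 CPM in NECs (55 UMIs, 2.40 to 4.14) and 23.2 CPM in TECs (108 UMIs, 19.1 to 28.1), so that the ranges stood far apart. Mbd2 was at 186 CPM in NECs (3221 UMIs) and 369 CPM in TECs (1715 UMIs). Among the genes for de novo methylation, Dnmt3a was at 29.1 CPM in NECs (503 UMIs) and 5.60 CPM in TECs (26 UMIs), and Dnmt3b at 6.25 CPM (108 UMIs) and 2.15 CPM (10 UMIs). Of the dioxygenases, Tet1 was at 4.22 CPM in NECs (73 UMIs) and 0.646 CPM in TECs (3 UMIs). Tet2 was at 28.6 CPM and 14.9 CPM, and Tet3 at 56.7 CPM and 23.0 CPM. For the members other than Dnmt1, the Poisson intervals of the NEC and TEC levels did not overlap. How often this held among all genes was not counted, so it is not read as a trait of the members.

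**Figure D1:**
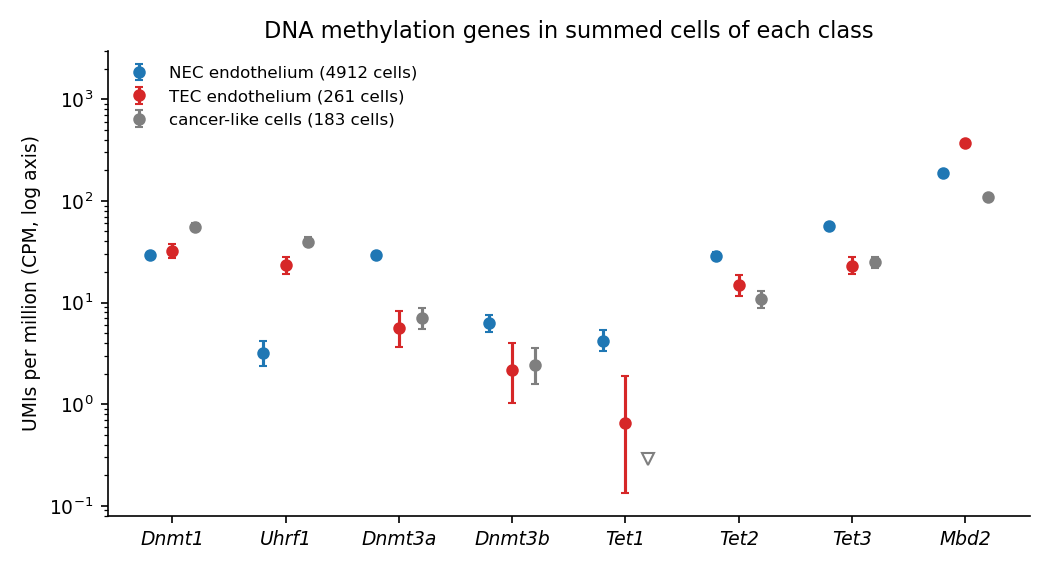
Level of each of the 8 genes (CPM on a log axis) summed over the cells of 3 classes, 1 library per condition, with exact Poisson 95% intervals; the open triangle marks 0 UMIs and stands at the level of 3 counts. Uhrf1 is high in both tumor classes and low in NECs, Dnmt3a is high in NECs and low in both tumor classes, and Mbd2 is highest in TECs.

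Of the 8 members, 1 (Uhrf1) was 2-fold or more higher in TECs and 4 (Dnmt3a, Dnmt3b, Tet1 and Tet3) were 2-fold or more lower. Of all 11102 genes with 10 or more UMIs expected in the smaller class, 10.1% were 2-fold higher and 22.5% were 2-fold lower. The median log2 ratio was -1.12 over the 8 members and -0.21 over all these genes, so ratios may be read against that shift. Uhrf1 was 7.30-fold higher (log2 ratio 2.87, exact conditional interval 2.39 to 3.36, and 1.36 when cells were thinned to 5000 UMIs) and stood at percentile 98.5 of the genes compared. For Dnmt1 the log2 ratio was 0.14 (-0.13 to 0.41), at percentile 63.8, and no difference was detectable at this depth. Mbd2 was 1.98-fold higher (log2 ratio 0.99, 0.90 to 1.07), just under 2-fold, and at 1.19 once centred on the median gene it was past it. Dnmt3a was 5.20-fold lower (log2 ratio -2.38, -3.01 to -1.81, and -1.48 as a mean over cells) and Tet3 2.46-fold lower (-1.30, -1.60 to -1.01). In 1 random draw of 1900 UMIs per cell, Tet3 was at -0.84 and under 2-fold. The shares of cells with Tet3 expected over such draws were 4.51% in TECs and 9.95% in NECs. Dnmt3b was 2.90-fold lower (-1.54, -2.64 to -0.60) and Tet2 1.92-fold lower (-0.94, -1.33 to -0.58). For Tet1, with 3 UMIs in TECs, the log2 ratio was -2.71 (-5.02 to -1.11).

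**Figure D2:**
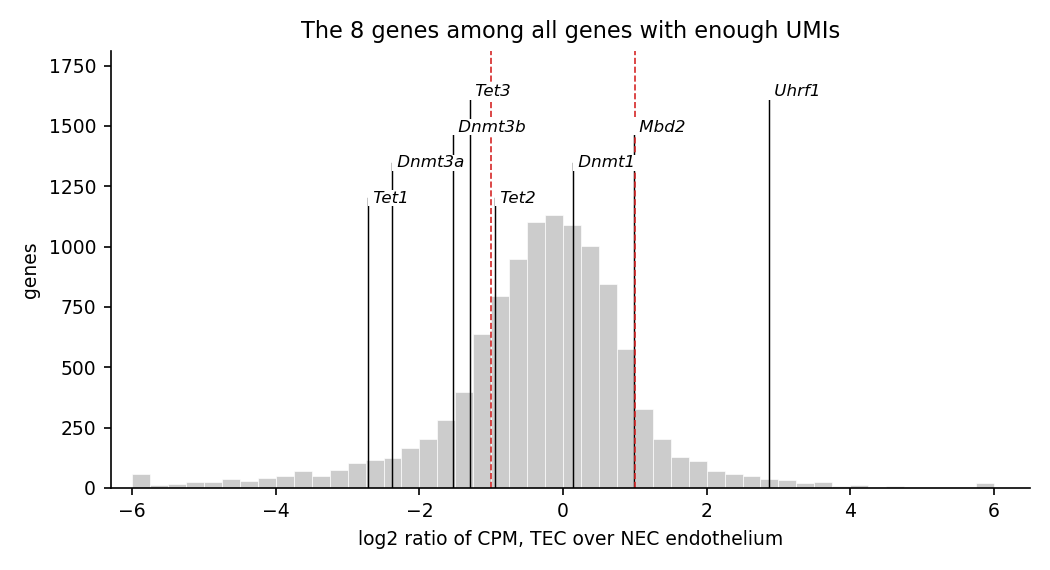
Number of genes (y axis) by log2 ratio of CPM of TEC over NEC endothelium (x axis) for the 11102 genes compared, with ratios beyond the end bins placed in them; black lines mark the 8 genes and dashed red lines mark 2-fold. Uhrf1 lies in the right tail at 2.87, Dnmt1 near the centre, and Tet1 and Dnmt3a in the left tail.

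Gene length moved with the ratios. When the genes were divided into quartiles by the length of the gene from start to end in RefSeq, known for 96.8% of them, the median log2 ratio of TECs over NECs was 0.12, -0.04, -0.22 and -0.66 from the shortest to the longest. Of the genes of at least 55.2 kb, 35.5% were 2-fold lower and 5.32% were 2-fold higher. Dnmt3a (113 kb), Tet3 (94.8 kb), Tet1 (82.9 kb), Tet2 (81.5 kb) and Mbd2 (60.9 kb) are in this quartile, whereas Dnmt1 (52.7 kb), Dnmt3b (38.3 kb) and Uhrf1 (20.2 kb) are shorter. Dnmt3a and the Tet genes were lower in TECs, and Mbd2 was higher. The part of length in these differences was not tested.

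Cells with UMIs of Mki67 or Top2a, markers of proliferation, were more frequent in the tumor. They were 91 of 4912 NECs (1.85%, Clopper-Pearson interval 1.49 to 2.27%), 73 of 261 TECs (28.0%, 22.6 to 33.8%) and 131 of 183 cancer-like cells (71.6%, 64.5 to 78.0%). With every cell brought down to 1900 randomly drawn UMIs, which dropped 1088, 22 and 14 cells below that depth, these shares were 1.33%, 13.4% and 26.6%. In TECs, the cells with Mki67 or Top2a held 39.3% of all UMIs but 67.1% of the Dnmt1 UMIs (100 of 149, 59.0 to 74.6%) and 87.0% of the Uhrf1 UMIs (94 of 108, 79.2 to 92.7%). In NECs they held 3.73% of all UMIs, 11.6% of the Dnmt1 UMIs (58 of 502) and 47.3% of the Uhrf1 UMIs (26 of 55). For Mbd2 the share was 36.4% in such TECs (34.1 to 38.7%), a little below the 39.3% of all UMIs. In such NECs it was 3.54% (2.93 to 4.24%), near the 3.73% of all UMIs.

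Because of this, the comparison of TECs with NECs was repeated within cells of the same kind. Among cells without Mki67 or Top2a, Dnmt1 was at 26.7 CPM in NECs (444 UMIs) and 17.4 CPM in TECs (49 UMIs), a log2 ratio of -0.62 (-1.08 to -0.19). Among cells with them it was at 89.98 CPM in NECs (58 UMIs) and 54.8 CPM in TECs (100 UMIs), a log2 ratio of -0.71 (-1.20 to -0.22). Dnmt1 was thus lower in TECs within both kinds of cell, while the pooled levels were alike. Deeper cells show Mki67 or Top2a more readily, and cells without them had a median of 2966 UMIs in NECs and 13705 in TECs. When the markers were instead counted after thinning to 1900 UMIs, a split chosen after seeing the data, the log2 ratio of Dnmt1 was -0.11 (-0.45 to 0.22) without the markers and -0.95 (-1.54 to -0.37) with them. The interval stayed below 0 under both ways of counting for cells with the markers, but not for those without.

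Uhrf1 in cells with Mki67 or Top2a was at 40.3 CPM in NECs (26 UMIs) and 51.5 CPM in TECs (94 UMIs), a log2 ratio of 0.35 with an interval that included 0 (-0.29 to 1.04). In cells without them it was at 1.74 CPM (29 UMIs) and 4.96 CPM (14 UMIs), a log2 ratio of 1.51 (0.47 to 2.48). With 6.24 UMIs expected in the smaller class, Uhrf1 was not among the genes counted in those cells. With the markers counted after thinning, these ratios were 0.05 (-0.66 to 0.79) and 2.91 (2.23 to 3.61), so the Uhrf1 difference in cells without markers also depended on the depth at which they were looked for. Dnmt3a was lower in TECs in both kinds, at 7.09 CPM against 28.8 CPM without the markers (log2 ratio -2.02, -2.75 to -1.38) and 3.29 CPM on 6 UMIs against 37.2 CPM on 24 UMIs with them. In the cells with the markers, 7.83 UMIs of Dnmt3a were expected in the smaller class, too few to be counted. Mbd2 was higher in TECs in both kinds, with log2 ratios of 1.05 (0.95 to 1.15) without and 0.95 (0.66 to 1.25) with the markers. Tet3 was lower in both, at 26.2 CPM against 56.9 CPM without and 18.1 CPM against 51.2 CPM with the markers, but with the markers counted after thinning the log2 ratio in cells with them was -0.98 (-2.05 to 0.10). Without the markers 8.15% of 10315 genes were 2-fold higher and 22.1% 2-fold lower in TECs, and with them 10.2% and 12.6% of 6847 genes.

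**Figure D3:**
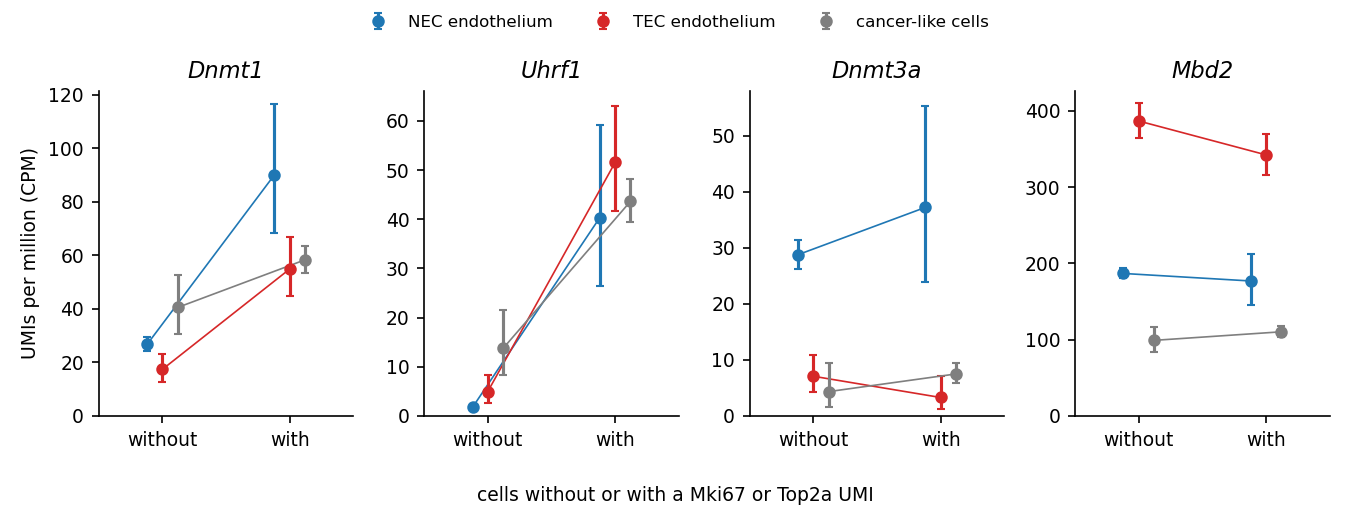
CPM of Dnmt1, Uhrf1, Dnmt3a and Mbd2 (y axes, linear from 0) in cells without and with a Mki67 or Top2a UMI in NEC endothelium, TEC endothelium and cancer-like cells, with exact Poisson 95% intervals. Dnmt1 and Uhrf1 are higher in the cells with the markers in each population, while Dnmt3a and Mbd2 separate normal from tumor endothelium in both kinds of cell.

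The other genes of the pathway were taken from fixed lists. Of 11 cofactors and partners of the writers that had enough UMIs, 5 were 2-fold higher in TECs and 1 was 2-fold lower (10.1% and 22.5% of all genes), with a median log2 ratio of 0.68. Among cells without Mki67 or Top2a 2 of 10 were higher and 1 was lower (median 0.40), beside 8.15% and 22.1% of all genes. Among cells with them 1 of 9 was higher and 1 was lower (median -0.45), near the 10.2% and 12.6% of all genes, so the sign of the median differed between the kinds of cell. Hells, a chromatin remodeler needed for methylation of repeats, was at 5.96 CPM in NECs and 24.8 CPM in TECs (log2 ratio 2.05, 1.66 to 2.45). Cdca7l, a relative of the HELLS partner CDCA7, was at 2.26 CPM and 7.96 CPM, and Zfp57, which protects methylation at imprinted genes, at 5.79 CPM and 16.6 CPM. Mat2a, which makes the methyl donor S-adenosylmethionine, was lower, at 286 CPM in NECs and 108 CPM in TECs (log2 ratio -1.40, -1.54 to -1.27).

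Of the 9 further readers 0 were 2-fold higher and 3 were 2-fold lower, beside 10.1% and 22.5% of all genes compared, with a median log2 ratio of -0.88. Among the latter were Zbtb33, which encodes the methyl-CpG binding protein Kaiso (14.2 CPM in NECs, 5.81 CPM in TECs), and Zbtb4 (53.4 and 22.4 CPM). Mbd2 thus differed in direction from both. Of 11 genes around demethylation, 1 was higher and 3 were lower, shares near those of all genes. Apex1, an endonuclease of base excision repair, was at 16.7 CPM in NECs and 58.1 CPM in TECs. Gadd45b was at 231 CPM and 13.1 CPM, Gadd45g at 359 CPM and 73.8 CPM, and Cxxc4, which binds unmethylated CpG sites, at 21.3 CPM and 1.94 CPM. Of 13 corepressor genes, 12 differed by less than 2-fold, and Sin3a was lower (32.1 and 15.1 CPM). Of the cell cycle lists, 16 of 19 S phase genes and 15 of 16 G2 and M phase genes were 2-fold higher in TECs and 0 were lower.

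Cancer-like cells of the same tumor library had more Dnmt1 and Uhrf1 and much less Mbd2 than TECs. Dnmt1 was at 55.9 CPM in cancer-like cells (577 UMIs, 51.4 to 60.6) and 32.1 CPM in TECs, a log2 ratio of 0.80 (0.54 to 1.07). Uhrf1 was at 39.6 CPM (409 UMIs) and 23.2 CPM, a log2 ratio of 0.77 (0.46 to 1.09). That ratio was 1.54 when cells were thinned to 5000 UMIs, and 7 of 13 alternatives lay within the interval. Mbd2 was at 109 CPM (1123 UMIs) and 369 CPM, 3.39-fold lower in the cancer-like cells (log2 ratio -1.76, -1.87 to -1.65). Of the 7 members with enough UMIs 0 were 2-fold higher and 1, Mbd2, was 2-fold lower, beside 18.4% and 19.9% of 10664 genes. Dnmt3a was at 7.07 CPM in cancer-like cells, Dnmt3b at 2.42 CPM and Tet3 at 24.8 CPM, each with an interval of the log2 ratio over TECs that included 0. The interval for Dnmt3a was -0.33 to 1.04, that for Dnmt3b -0.94 to 1.39 and that for Tet3 -0.22 to 0.45. Tet2 was at 10.8 CPM, a log2 ratio of -0.47 (-0.91 to -0.01). Tet1 had 0 UMIs in 183 cancer-like cells, with a Poisson upper limit of 0.357 CPM (0.291 CPM at the floor of 3 counts). The 3 UMIs in TECs are at that floor too, so with both classes at or under it no fold is given. Markers of other cell types moved with this comparison. Fibroblast genes summed to 293 CPM in cancer-like cells (7 of 8 found, Col3a1 at 247 CPM, Lum at 0) and 7.53 CPM in TECs (6 of 8, Lum and Dpt at 0). Epithelial genes summed to 305 CPM (5 of 6 listed, Wfdc2 at 193 CPM, Cldn3 at 0) and 46.7 CPM (4 of 6, Cldn4 at 40.0 CPM, Krt18 and Krt19 at 0), and pericyte and smooth muscle genes to 151 CPM (7 of 8, Acta2 at 111 CPM, Cnn1 at 0) and 52.7 CPM. Their part in the differences was not tested.

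Within cells that had Mki67 or Top2a, Dnmt1 was at 58.3 CPM in cancer-like cells and 54.8 CPM in TECs (log2 ratio 0.09, -0.22 to 0.41), and Uhrf1 was at 43.6 CPM and 51.5 CPM (-0.24, -0.57 to 0.10). Within cells without them, Dnmt1 was at 40.5 CPM and 17.4 CPM (1.22, 0.64 to 1.80), and Uhrf1 at 13.7 CPM and 4.96 CPM (1.47, 0.40 to 2.58). The higher Dnmt1 and Uhrf1 of cancer-like cells were thus seen in the pooled cells and in those without the markers, where the median depth was 16691 UMIs, against 13705 in TECs. Mbd2 was lower in cancer-like cells of both kinds, with log2 ratios of -1.63 and -1.96. To see how far the classes shared RNA, 13 genes were taken that had at least 50 CPM in cancer-like cells and under 0.5 CPM in NECs. They stood in TECs at a median of 3.99% of their cancer-like level (0.334% to 29.2%). The 12 endothelial genes stood in cancer-like cells at a median of 0.390% of their TEC level (0% to 6.76%).

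Among the wider lists, Dnmt3l, a partner of the de novo methyltransferases that lacks catalytic activity, had 74 UMIs in cancer-like cells (7.17 CPM), 1 UMI in TECs and 0 UMIs in NECs, a log2 ratio of 5.06 over TECs (2.53 to 10.38). Zfp57 was lower in cancer-like cells (2.52 against 16.6 CPM), while Ahcy, which clears the by-product of methyl transfer (16.7 against 4.30 CPM), and Cdca7l (24.4 against 7.96 CPM) were higher. Of 13 writer partners 3 were 2-fold higher and 1 lower, beside 18.4% and 19.9% of all genes. Of 10 genes around demethylation 3 were higher (Idh2, Gadd45b and Apex1) and 1 was lower (Gadd45g), and of 13 corepressor genes 1 was higher, the histone methyltransferase Setdb1 (21.8 against 9.90 CPM).

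Dnmt1 and Uhrf1 were higher in cells with proliferation markers in each of the 3 populations. In NECs, Dnmt1 was at 89.98 CPM with and 26.7 CPM without Mki67 or Top2a, 3.37-fold higher (log2 ratio 1.75, 1.33 to 2.15). It was the 1 of 5 members with enough UMIs that was 2-fold higher, beside 2.50% of 7005 genes, and 0 were lower, beside 4.37%. Uhrf1 had 26 UMIs in the 91 cells with and 29 UMIs in the 4821 cells without the markers (log2 ratio 4.53, 3.71 to 5.35), and with 2.05 UMIs expected in the smaller class it was not among the genes counted. Nor was Tet1, with 7 and 66 UMIs (10.9 and 3.97 CPM, log2 ratio 1.45, 0.08 to 2.58), which was at -0.36 with 3 or more G2 and M phase genes in place of the markers. In TECs, Dnmt1 was at 54.8 CPM with and 17.4 CPM without the markers, 3.16-fold higher (log2 ratio 1.66, 1.15 to 2.18), and Uhrf1 was at 51.5 and 4.96 CPM, 10.4-fold higher (3.38, 2.56 to 4.30). Of 6 members in TECs, 2 were thus 2-fold higher, beside 4.96% of 9064 genes, and 1 was lower, beside 3.01%. The latter was Dnmt3a on 6 and 20 UMIs, and its interval included 0 (log2 ratio -1.11, -2.71 to 0.26). In NECs Dnmt3a was at 0.37 (-0.29 to 0.96), and between -1.21 and 1.1 under the alternatives. In cancer-like cells it was at 0.79 on 67 and 6 UMIs (-0.41 to 2.29), too few to be counted.

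The cells with the markers were deeper in each population (median 5666 against 2966 UMIs in NECs, 24348 against 13705 in TECs, 70837 against 16691 in cancer-like cells), and the size of the Dnmt1 difference in TECs depended on how cells were weighted. The log2 ratio was 0.60 as a mean over cells and 1.11 without the deepest 5% of each class, and 1 cell alone held 14 of the 149 Dnmt1 UMIs. In 1 random draw of 1900 UMIs per cell it was 0.54, with Dnmt1 in 5 of 72 cells with and 7 of 167 without the markers. The shares expected over draws were 7.76% and 3.01%. For Uhrf1 in TECs, the lowest value under any alternative was 1.95 and the highest was 4.89.

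In cancer-like cells, Dnmt1 was at 58.3 CPM with and 40.5 CPM without the markers, a log2 ratio of 0.53 (0.13 to 0.95), while the median over all genes was 0.21. In 1 random draw it was 1.22 at 1900 UMIs and 2.53 at 5000 UMIs, with Dnmt1 in 2 of 40 and 2 of 35 cells without the markers. The shares expected over draws were 9.99% with and 7.29% without the markers at 1900 UMIs, and 23.3% and 17.4% at 5000. In TECs they were 7.76% and 3.01%, and 19.5% and 7.44%. The high values of the draw in cancer-like cells were thus not seen in the expected shares. Uhrf1 was at 43.6 and 13.7 CPM, 3.18-fold higher (1.67, 1.00 to 2.41), the 1 of 5 members past 2-fold, beside 6.88% of 8237 genes, and 0 were lower, beside 0.607%. In the draw of 5000 UMIs the ratio of Uhrf1 was -0.07, with Uhrf1 in 6 of 35 cells without the markers. Its expected shares at that depth were 18.5% with and 10.6% without the markers. Summed over all UMIs, Tet2, Tet3 and Mbd2 differed by less than 2-fold in the 3 populations. Their log2 ratios lay between -0.31 and -0.08 in NECs, between -0.54 and -0.18 in TECs and between -0.34 and 0.15 in cancer-like cells, and the interval of Mbd2 in TECs (-0.32 to -0.03) was below 0. Other settings moved some of these past 2-fold. In the draw of 1900 UMIs, Tet2 was at -1.96 and Tet3 at -1.37 in TECs, found in 1 and 2 of the 72 cells with the markers. They were at -1.10 and -1.27 in cancer-like cells, and all these intervals included 0. The expected shares with and without the markers were 3.03% and 4.03% for Tet2 and 3.18% and 5.09% for Tet3 in TECs. In cancer-like cells they were 2.27% and 2.01% for Tet2 and 4.35% and 8.69% for Tet3. With 3 or more G2 and M phase genes in place of the markers, Tet2 was at -3.13 in NECs (-8.44 to -0.65) and -1.27 in TECs (-2.20 to -0.43). With 3 or more S phase genes, chosen after seeing the data, the ratios in cancer-like cells were -1.60 for Tet2, -1.82 for Tet3 and 1.35 for Mbd2.

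**Figure D4:**
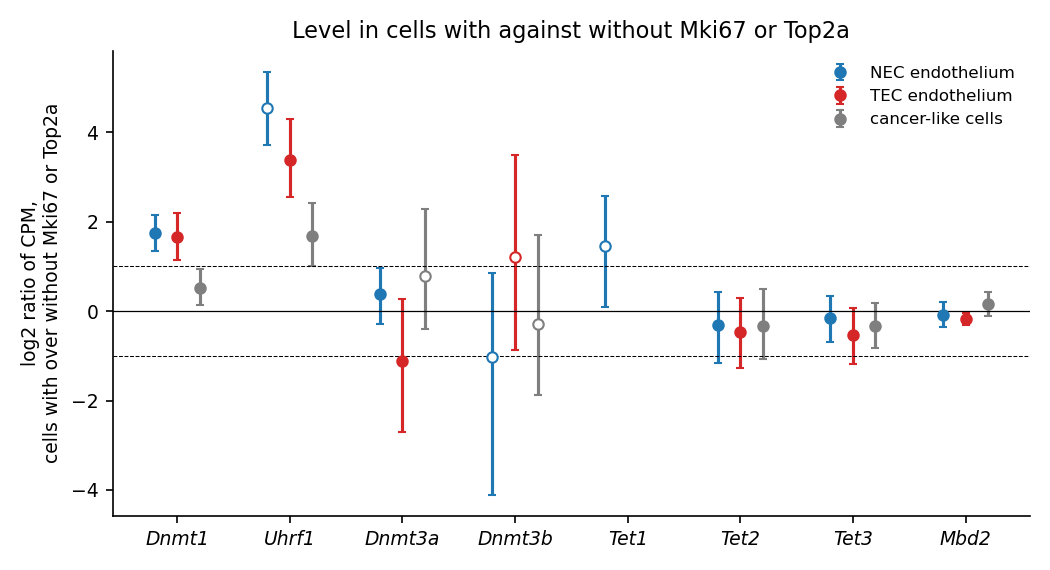
Log2 ratio of CPM (y axis) in cells with over cells without a Mki67 or Top2a UMI for each gene in 3 populations, with exact conditional 95% intervals; open symbols mark genes with under 10 UMIs expected in the smaller class, Tet1 is shown only for NECs, and dashed lines mark 2-fold. Dnmt1 and Uhrf1 lie above 0 in each population, and the intervals of Tet2 and Tet3 include 0 in each.

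Some genes of the writer partner list were higher in the cells with the markers. Lig1, the DNA ligase of replication, was at 115 CPM with and 14.9 CPM without the markers in NECs and at 76.8 and 25.9 CPM in TECs. Pcna, the sliding clamp, was at 166 and 77.6 CPM in NECs and 103 and 40.0 CPM in TECs. Hells was at 44.4 and 12.05 CPM in TECs and at 51.7 and 11.6 CPM in cancer-like cells, and had 39 and 64 UMIs in NECs, too few to be counted. Of the writer partners with enough UMIs, 2 of 6 were 2-fold higher in NECs, 3 of 11 in TECs and 1 of 11 in cancer-like cells, and 0 were lower in these 3 comparisons. Of all genes, 2.50%, 4.96% and 6.88% were higher and 4.37%, 3.01% and 0.607% lower in the same comparisons, against which the list counts of this paragraph may be read. Of the further readers 0 were higher in NECs and TECs, 2 of 7 (Zbtb38 and Mbd5) were lower in NECs, and Mbd5 was higher in cancer-like cells on 85 and 3 UMIs. Among genes around demethylation, Apex1 was higher (40.3 and 15.7 CPM) and Gadd45a lower (14.0 and 28.8 CPM) in NECs, Gadd45b was higher in TECs (20.3 and 8.50 CPM) and Idh1 in cancer-like cells (18.1 and 7.95 CPM). Of the corepressors, the histone methyltransferase Suv39h1 was higher in TECs (16.4 and 4.61 CPM) and Sin3a in cancer-like cells (17.7 and 8.67 CPM), and 0 of 12 were past 2-fold in NECs. The S phase genes with enough UMIs were all 2-fold higher in NECs (6 of 6) and TECs (19 of 19), as were 14 of 19 in cancer-like cells.

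The share of cells with a UMI of a member depended strongly on depth. Dnmt1 UMIs were found in 9.04% of NECs, 28.7% of TECs and 65.0% of cancer-like cells, and after thinning to 1900 UMIs in 5.65% (4.94 to 6.43%), 5.02% (2.62 to 8.61%) and 8.88% (5.05 to 14.2%). Uhrf1 UMIs were found in 0.916%, 16.9% and 56.8% of the cells, and after thinning in 0.445% (17 of 3824 cells), 2.51% (6 of 239) and 8.88% (15 of 169). Mbd2 was found in 30.8%, 47.7% and 18.9% of thinned cells, the same order as its CPM. Tet2 was found in 5.73%, 3.77% and 2.96%, and Tet3 in 9.44%, 5.44% and 3.55%. Dnmt3a was found in 5.41% of thinned NECs, 0.837% of TECs (2 cells) and 1.78% of cancer-like cells (3 cells), and Tet1 in 0.758%, 0% and 0%. For Tet1, 0 of 239 thinned TECs leaves an upper Clopper-Pearson bound of 1.53%, above the NEC share, so these shares do not separate the classes. Among all UMIs, 2 of 261 TECs held Tet1. Thinned levels of Dnmt3b were near those of 1 UMI in TECs and cancer-like cells and are not read. Of the 8 members, 2 (Uhrf1 and Mbd2) had a higher share in TECs than in NECs at 1900 UMIs. The same count over all genes was not made, and their median log2 ratio over all UMIs was -0.21. In the draw of 5000 UMIs Dnmt1 was found in 12.3% of 211 TECs and 10.6% of 847 NECs, with overlapping intervals. The shares expected over draws were 11.3% and 11.9%, so the draw does not set a direction for Dnmt1. No cell type in either library could be taken to lack these genes, so the shares have no background level beside them.

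Dnmt1 was also looked for at 1900 UMIs in cells split by the proliferation markers, which were counted among all UMIs. It was found in 13.3% of NECs with the markers (11 of 83, 6.81 to 22.5%) and 5.48% of those without (4.77 to 6.26%). In TECs the shares were 6.94% (5 of 72) and 4.19% (7 of 167), and their intervals overlapped. Among all UMIs, both Dnmt1 and Uhrf1 were found in 21 of the 45 NECs that had Uhrf1 and in 26 of the 44 such TECs. Of these double-positive cells, 14 NECs and 22 TECs had Mki67 or Top2a as well. Independent detection would give 4.07 such NECs and 12.6 such TECs, without regard to the depth of single cells, and after thinning to 1900 UMIs both genes were found in 4 of 17 NECs and 0 of 6 TECs with Uhrf1.

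To describe the members over vessel types, the ECs of each library were clustered alone, without the 8 genes, into 17 clusters of NECs and 4 of TECs, and clusters were named from fixed marker lists. Dnmt1 was highest in the mitotic-like cluster of NECs, at 98.3 CPM (76 cells, 73.8 to 128), with a median of 24.8 CPM over the 17 clusters and 34.4 CPM in the next highest, a capillary-like cluster. In TECs it was at 59.3 CPM in the mitotic-like cluster (52 cells, 47.7 to 72.8), while the IFN-like cells stood at 21.3 CPM and the tip-like cells at 13.8 CPM. Uhrf1 was at 49.1 CPM in the mitotic-like NECs, where the next highest cluster was at 4.67 CPM, and at 60.6 CPM in the mitotic-like TECs, where the next was at 8.28 CPM. The mitotic-like cells had a median of 6292.5 UMIs in NECs and 29966 in TECs, and Mki67 or Top2a UMIs were found in 43.4% and 73.1% of them. At a resolution of 0.4, the mitotic-like cluster of NECs held 30 cells, all with Mki67 or Top2a, in which Dnmt1 was at 179 CPM (133 to 236) and Uhrf1 at 87.9 CPM (56.9 to 129.7).

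**Figure D5:**
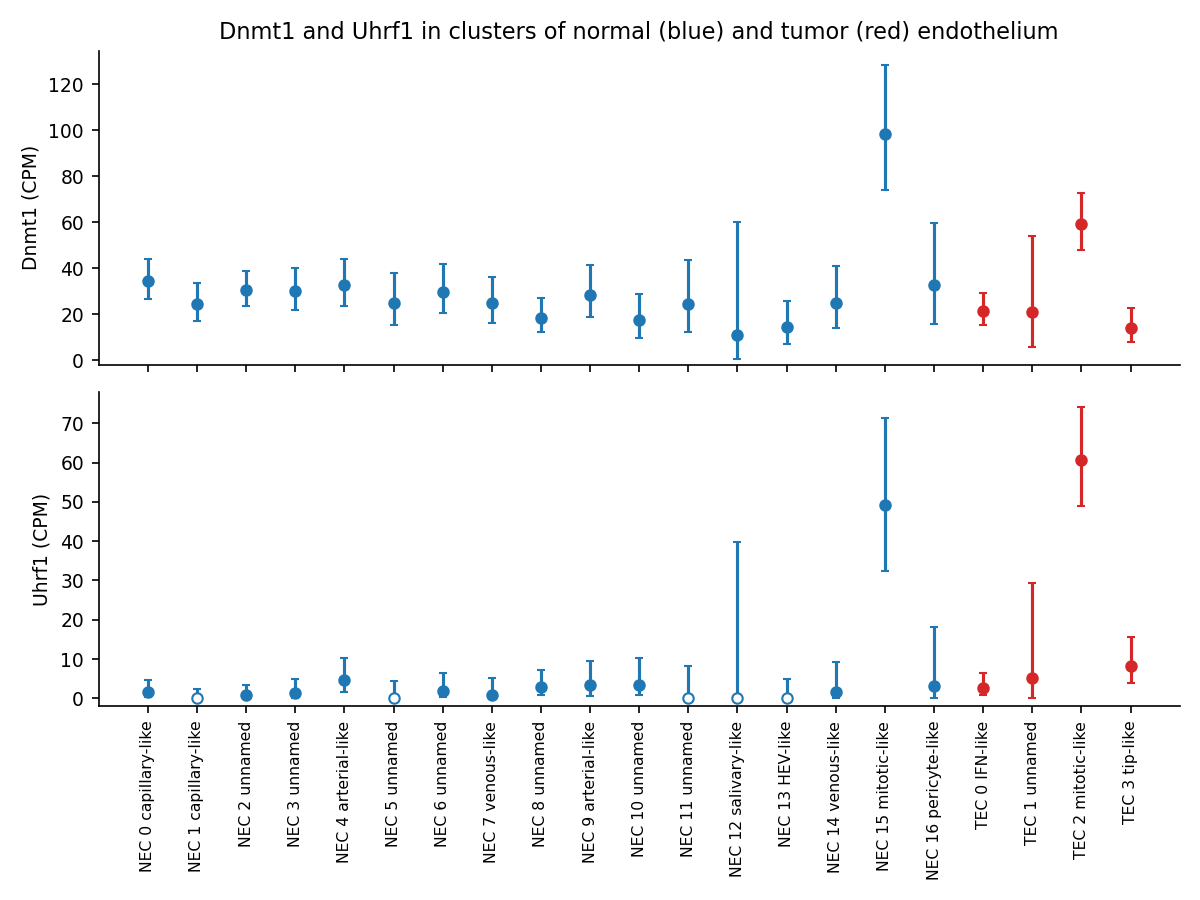
CPM of Dnmt1 (top) and Uhrf1 (bottom) in each cluster of NEC endothelium (blue) and TEC endothelium (red), with exact Poisson 95% intervals; open symbols mark 0 UMIs. The mitotic-like cluster of each library stands above the other clusters of that library for both genes.

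The other members had no maximum in the mitotic-like NECs. Dnmt3a ranged from 12.6 CPM in a capillary-like cluster of 762 cells (8.0 to 18.9) to 55.2 CPM in an unnamed cluster led by Htr2b and Gria3 (35.7 to 81.5) and 55.1 CPM in high endothelial venule (HEV)-like cells (39.7 to 74.4), so the ends of its range were apart by more than counting error. In the 4 TEC clusters it lay between 3.68 and 10.6 CPM. The latter rested on 2 UMIs in the shallow cluster, and the intervals of all 4 TEC clusters overlapped that of the lowest NEC cluster. Tet1 was highest, at 14.0 CPM (8.64 to 21.3), in a cluster of 494 NECs led by Meis2, Plscr2 and Tbxa2r, with a median of 3.50 CPM over all 17 NEC clusters and 0.546 CPM (1 UMI) in the capillary-like cluster of 762 cells. Tet3 ranged from 27.5 CPM in HEV-like NECs to 81.4 CPM (63.4 to 103) in an unnamed cluster led by Mt2 and Car3. The range of Tet3 leaves aside a shallow salivary-like cluster of 99 cells (median 809 UMIs), in which Tet2 (75.4 CPM on 7 UMIs) and Tet3 (108 CPM on 10 UMIs) were highest of all clusters. Mbd2 ranged from 114 to 233 CPM over the NEC clusters and from 317 CPM in mitotic-like to 423 CPM in IFN-like TECs, so the lowest TEC cluster was above the highest NEC cluster.

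Finally, genes with a like pattern were ranked by the correlation of log2(CPM + 1) over 22 groups, namely 21 clusters and the cancer-like cells, among 9800 genes of at least 20 CPM in some group. The values are descriptive, since 17 of the 22 groups share the NEC library and the groups differ in depth. For Dnmt1 the most alike were Ncapg2 (Pearson r = 0.86), Kif20b, Rfwd3, Plk4 and Ect2, and for Uhrf1 they were Snrpd1 (r = 0.92), C330027C09Rik, Knstrn, Top2a and Ran. For Dnmt3a they were Srcap (r = 0.85), Kmt2c, Brwd1, Zmynd11 and Atrx, and for Tet2 they were Efcab14 (r = 0.93), Mib1, Rb1cc1, Synrg and Thoc2.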

How the data were processed

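The authors mapped reads with Cell Ranger to mm10 (per the labels; versions are not given in the sources used here) and deposited whole-number UMI counts per gene and barcode, without normalization, for 1 library each of TECs and NECs. Barcodes held at least 500 UMIs in NECs and 510 in TECs. Cells were filtered and classed as in the text, UMIs were summed per class, and CPM were given with exact Poisson intervals, log2 ratios with exact conditional binomial intervals and shares with Clopper-Pearson intervals. Ratios were computed for all genes. They were also run on simulated Poisson counts, the model that the intervals assume, so that run does not cover spread between cells or libraries. PCR copies collapse to UMIs, but cells share 1 library, so intervals cover counting error only and no p-value was computed. Doublets were not called, and leaving out the deepest 5% of cells was an alternative. Clustering used Seurat 5.3.0 in R 4.3.3 (LogNormalize, 4000 variable genes without the 8 members, 20 principal components, resolution 0.8). Other steps used Python 3.11.15, numpy 2.4.6, scipy 1.17.1, pandas 2.3.3 and matplotlib 3.10.9. Of the symbols, 98.8% were in GENCODE M21 (GRCm38). Named genes were the 8 members, up to 4 genes a list furthest past 2-fold (some are not reported here), the 5 most alike genes for 4 members, and leading genes of clusters. The members and lists were chosen with earlier results of these data known. Rebuilt clusters and names may differ from those of the study.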

Additional observations from a re-analysis of the deposited data

Results flagged for a closer look

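Cells outside the classes compared held a signal of Tet2. In the 249 NECs of neither class, of which 223 had no UMI of the 5 marker genes, Tet2 was at 54.4 CPM (27 UMIs, 35.8 to 79.1), against 28.6 CPM in the endothelial NECs, a log2 ratio of 0.93 (0.31 to 1.49). These cells were shallow, with a median of 1165 UMIs and 5.21% mitochondrial UMIs, against 2984 UMIs and 3.67% in the endothelial NECs, and salivary genes made up 54812 CPM in them, against 2170 CPM. The part of depth and of salivary RNA in this value was not tested. Uhrf1 had 0 UMIs in them.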

How the results depend on the processing

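No paired analysis was possible because each condition had 1 library, and no library could be left out. Of 243 values of the counts of members past 2-fold, the Dnmt1 log2 ratios and the summaries of shares and clusters under the alternatives, 181 stayed within the interval of the first value, or within 1.5 times it for counts, as did 466 of 548 values of the other members. All splits of the TEC over NEC and cancer-like over TEC comparisons by Mki67 or Top2a, the removal of clusters and the use of S phase genes were chosen after seeing the data. Depth limits the members with few UMIs, and under thinning counts fell in part because fewer members reached 10 expected UMIs. Thinned ratios rest on 1 random draw per depth and so also vary by the draw. Tet3 in TECs over NECs was at -0.84 in the draw of 1900 UMIs in place of -1.30. Its shares expected over draws were 4.51% in TECs and 9.95% in NECs.
For TECs over NECs, the count of members 2-fold higher (1) was 2 when ratios were centred on the median gene, 2 when cells with Ptprc, Myh11, Epcam or Cspg4 were kept, and 2 in cells without Mki67 or Top2a after thinning and 0 in cells with them, whether counted before or after thinning. The count lower (4) was 2 and 1 at 5000 and 1900 UMIs, where the count higher was 0 at 1900 UMIs, and was 1 and 0 in cells with the markers before and after thinning. The log2 ratio of Dnmt1 (0.14) was -0.19 without the deepest 5%, -0.13 at 1900 UMIs, -0.62 in cells without and -0.71 in cells with Mki67 or Top2a, and -0.95 in cells with them after thinning. In cells with the markers, that of Dnmt3b was 0.084 in place of -1.54, on 6 and 2 UMIs. With the pericyte-like, salivary-like and shallow clusters left out, the counts were 1 and 4, and the shares of all genes were not computed for those cells.
For cancer-like cells over TECs, the count higher (0) was 2 without the deepest 5%, 1 as a mean over cells and 1 at 5000 UMIs. It was 2 in cells without the markers and 1 in cells with them. Of all genes, 13.4% were higher and 26.3% lower without the markers, and 16.6% and 15.1% with them. The count lower (1) was 2 with no minimum of UMIs. The log2 ratio of Dnmt1 (0.80) was 1.12 without the deepest 5%, 1.22 in cells without and 0.088 in cells with the markers.
For NECs with over without Mki67 or Top2a, the count higher (1) was 3 with no minimum, and 0 without the deepest 5%, at 1900 and 5000 UMIs and with 3 or more G2 and M phase genes. The count lower (0) was 1 with no minimum and 1 with 2 or more UMIs of the markers. The log2 ratio of Dnmt1 (1.75) was 2.17 at 5000 UMIs, 2.48 with 2 or more UMIs, 2.28 with Mki67 alone, 2.70 with 3 or more G2 and M phase genes, 2.36 with the markers counted after thinning and 1.09 with 3 or more S phase genes.
For TECs with over without them, the count higher (2) was 1 as a mean over cells and 0 at 1900 and 5000 UMIs. The count lower (1, Dnmt3a) was 2 with no minimum and 0 with no UMI of the other class, with mitochondrial UMIs under 5%, without the deepest 5%, at 1900 and 5000 UMIs, with 2 or more UMIs, with Mki67 or Top2a alone and with the markers counted after thinning. The log2 ratio of Dnmt1 (1.66) was 1.11 without the deepest 5%, 0.60 as a mean over cells and 0.54 at 1900 UMIs.
For cancer-like cells with over without the markers, the count higher (1) was 0 at 1900 and 5000 UMIs, with Mki67 alone and with the markers counted after thinning. The log2 ratio of Dnmt1 (0.53) was 0.95 as a mean over cells, 1.22 at 1900 UMIs, 2.53 at 5000 UMIs, 0.96 with 3 or more G2 and M phase genes and 1.39 with 3 or more S phase genes, and that of Uhrf1 was -0.070 at 5000 UMIs in place of 1.67. Where an alternative changes which cells or how many UMIs enter, that is its construction, and the cause was otherwise not tested.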

Other observations

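In 39 NECs that had more UMIs of Rhox5, Hmga2 and Krt8 than of Cdh5 and Pecam1, Dnmt3a was at 62.0 CPM on 8 UMIs (26.8 to 122), Dnmt1 at 15.5 CPM on 2 UMIs and Uhrf1 had 0 UMIs. Salivary genes made up 167941 CPM in these cells, of which Bpifa2 held 99192 CPM. In the 12 TECs of neither class, the members had 2 UMIs of Dnmt1, 2 of Mbd2, 1 of Uhrf1 and 1 of Tet2, and 0 of Dnmt3a, Dnmt3b, Tet1 and Tet3.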
